A study of Mus musculus with 8 samples.

Results

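The 10 genes described here encode the AMP-activated protein kinase (AMPK) and the kinases that switch it on, and they were chosen by name: the catalytic subunits Prkaa1 and Prkaa2, the scaffold subunits Prkab1 and Prkab2, the nucleotide-binding subunits Prkag1 and Prkag2, the upstream kinase LKB1 (Stk11) with its partners Cab39 and Strada, and the calcium-dependent kinase Camkk2. They are 10 of the 35975 genes and 64 of the 119414 transcripts measured. AMPK is a trimer of 1 alpha, 1 beta and 1 gamma subunit that senses falling cellular energy, because AMP and ADP bind the gamma subunit when ATP is used up. Its alpha subunit is then phosphorylated by LKB1, which works as a complex with the pseudokinase STRAD and the scaffold MO25 (the product of Cab39), or by CaMKK2 when calcium rises. In the liver, active AMPK is known for restraining fatty acid and cholesterol synthesis and glucose production and for promoting fat oxidation. Most of this control acts through phosphorylation, which transcript levels do not record.

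Liver RNA came from C57BL/6 mice (C57BL/6J by the study's methods) infused through the portal vein for 2 weeks, 4 of them with normal saline (NS) and 4 with 4-hydroxyphenylacetic acid, a gut microbial metabolite of dietary polyphenols that is called 4-HPAA here. Mice of both groups carried a portal vein catheter fed by a subcutaneous osmotic pump and lived singly after surgery, so that the saline group shares the operation and the housing. By the study's methods the animals were purchased at 8 to 10 weeks of age, and the methods name no genetic modification. The study used males and females, and the labels of these libraries do not give the sex. The question put to the genes was whether their RNA differed between the livers given 4-HPAA and those given saline.

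The libraries held from 29559978 to 30673398 estimated counts, and a two-sided exact permutation test found no difference in depth between the groups (p = 0.343). The tissue label was checked with 8 hepatocyte markers, whose summed level was 96531 to 115681 transcripts per 1000000 (TPM) across the libraries. Red blood cell genes varied most among the cell type lists, from 264 to 6351 TPM in sum, and were highest in NS replicate 2 and 4-HPAA replicate 4. All 6 of these genes were lower on average with 4-HPAA, where 50.4% of all genes tested were higher, and 0 of them passed the test described below. In normalised counts 1 of the 6, Car2, did not overlap between the groups, against 1.2% of all genes tested. Its unadjusted p by edgeR was 0.0388, and 1.75% of all genes fell under 0.05. Without NS replicate 2 and 4-HPAA replicate 4, 0 of the 10 genes passed the test. In bulk tissue, fewer cells of a type and less RNA per cell cannot be told apart.

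All 10 genes were detected in every library, and their levels spanned a wide range. Levels of different genes were compared in TPM, the estimated counts divided by transcript length and scaled to a fixed sum. Stk11 was the highest, with 55.9 ± 1.37 TPM in the NS livers and 53.2 ± 4.19 TPM in the 4-HPAA livers (mean ± SD, n = 4 each), and in each of the 8 libraries it lay above every other member. Prkag1 (30.8 ± 0.857 and 29.9 ± 0.966 TPM), Cab39 (28.1 ± 2.95 and 28.7 ± 2.86 TPM) and Prkag2 (26.5 ± 3.72 and 26.4 ± 1.64 TPM) followed, each overlapping the next. Prkab1 (17.2 ± 2.28 and 16.9 ± 0.672 TPM) and Prkaa2 (16.2 ± 2.56 and 17.4 ± 2.56 TPM) formed the next step and also overlapped. These levels count all listed transcripts. On transcripts annotated as protein-coding alone, Stk11 still led, with a mean over the 8 libraries of 41.0 TPM. Cab39 (28.2 TPM), Prkag1 (27.8 TPM), Prkaa2 (16.8 TPM), Prkag2 (15.8 TPM) and Prkab1 (11.8 TPM) followed, so the order below Stk11 depended on that choice.

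The low end held Prkaa1 at 4.25 ± 0.481 TPM with NS and 4.42 ± 0.300 TPM with 4-HPAA, and Camkk2 at 3.47 ± 0.375 and 3.42 ± 0.659 TPM. Prkaa1 exceeded Camkk2 in 7 of the 8 libraries, although their ranges overlapped. Strada, at 2.09 ± 0.207 and 2.06 ± 0.184 TPM, was below Camkk2 in 8 of 8 libraries. Prkab2 was the lowest member, at 0.923 ± 0.249 and 0.718 ± 0.128 TPM, below Strada in 8 of 8 libraries and higher than only 9.78% of the genes tested.

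**Figure D1:**
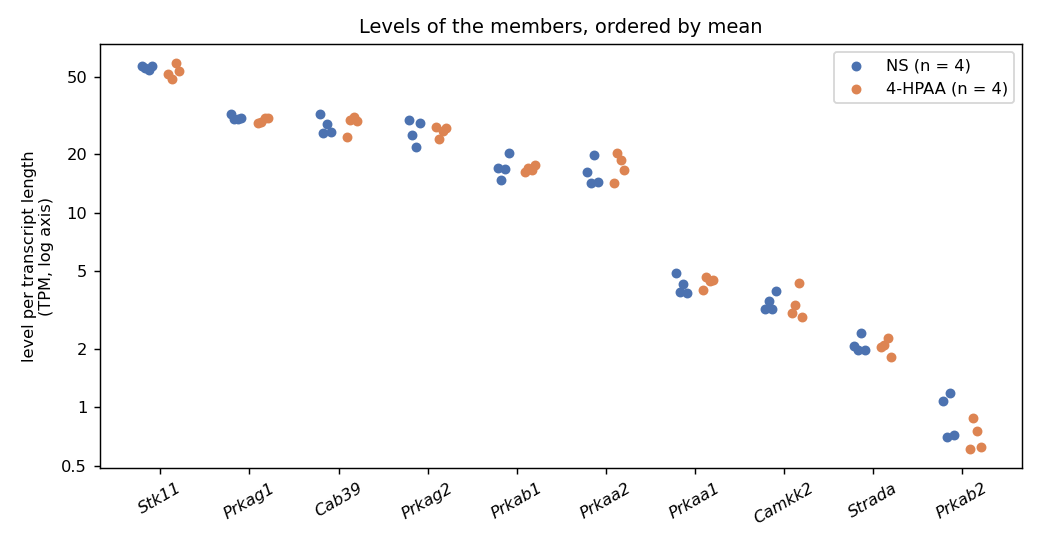
Level of each member in each library in TPM on a log axis, ordered by the mean over all libraries, with 1 point for each mouse (NS in blue, 4-HPAA in orange, n = 4 each). Stk11 stands alone at the top and Prkab2 alone at the bottom, and the ranges of both groups overlap for each gene.

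By annotated length, the same isoform of each subunit class led at the RNA level in each library, and the lead was narrowest for gamma. Prkaa2 transcripts were 3.81 ± 0.550 times as abundant as Prkaa1 transcripts with NS and 3.93 ± 0.363 times with 4-HPAA. The lead of Prkab1 over Prkab2 was wider, 19.8 ± 6.39 times with NS and 24.0 ± 4.12 times with 4-HPAA, with single libraries from 14.1 to 28.4. On transcripts annotated as protein-coding alone it was 19.5 ± 2.92 times with NS and 19.4 ± 5.19 times with 4-HPAA. Prkag2 was below Prkag1 in each library (0.721 to 0.959 of its level). It reached 0.858 ± 0.104 and 0.883 ± 0.0572 of the Prkag1 level. When only transcripts annotated as protein-coding were counted, it reached 0.558 ± 0.0210 and 0.578 ± 0.0394, so the size of the gap depended on that choice. With 200 bases taken off each transcript length (100 kept at the least), the highest ratio was 1.002. Prkag2 was then not below Prkag1 in every library. The muscle-type gamma gene Prkag3, outside the 10, was at 1.71 ± 1.08 and 1.09 ± 0.128 TPM.

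Summed over each class, gamma subunit RNA exceeded alpha and beta. The gamma genes gave 57.3 ± 4.41 TPM with NS and 56.3 ± 2.09 TPM with 4-HPAA. The alpha genes gave 20.4 ± 2.79 and 21.8 ± 2.83 TPM. The beta genes gave 18.1 ± 2.26 and 17.6 ± 0.696 TPM. The lowest gamma sum in any library, 52.1 TPM, was above the highest alpha sum of 24.9 TPM and the highest beta sum of 21.02 TPM, and the groups overlapped in all 3 classes. The sums count all listed transcripts. On protein-coding transcripts alone, averaged over all libraries, Prkab1 had 11.8 rather than 17.0 TPM and Prkag2 15.8 rather than 26.4 TPM. The alpha genes have only protein-coding transcripts, so the distances between the classes depended on that choice.

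Among the upstream kinases, Stk11 transcripts exceeded those of Camkk2 16.2 ± 1.49 times with NS and 15.8 ± 2.28 times with 4-HPAA. The partners of LKB1 each have a paralog that can take their place. Cab39l, the paralog of Cab39, was higher than Cab39 in each library, with Cab39 at 0.817 ± 0.115 of its level with NS and 0.826 ± 0.162 with 4-HPAA (0.602 to 0.958 in single livers). Stradb exceeded Strada 11.4 ± 1.58 times with NS and 11.5 ± 1.08 times with 4-HPAA. Only 18.5% of the Stradb counts lay on transcripts annotated as protein-coding, and on those transcripts the ratio was 3.52 ± 1.22 and 2.87 ± 1.13.

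None of the 10 genes passed the test for a difference between the groups. The test was edgeR's quasi-likelihood F test, run on the 12883 genes that reached 10 counts in each of the libraries and adjusted over all of them by Benjamini-Hochberg. It put 0 members under an adjusted p of 0.05, against 0% of all genes. At an unadjusted p under 0.05 the members again numbered 0, where 1.75% of all genes fell, and the smallest unadjusted p of a member was 0.296. DESeq2 called 2 of the genes tested (0.0155%) and 0 members. The groups overlapped in normalised counts for all 10, and 1.2% of all genes did not overlap. Of the 10, 6 were higher on average with 4-HPAA and 4 lower, where 50.4% of all genes were higher. The median absolute log2 fold change was 0.057 for the members and 0.070 for all genes tested.

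**Figure D2:**
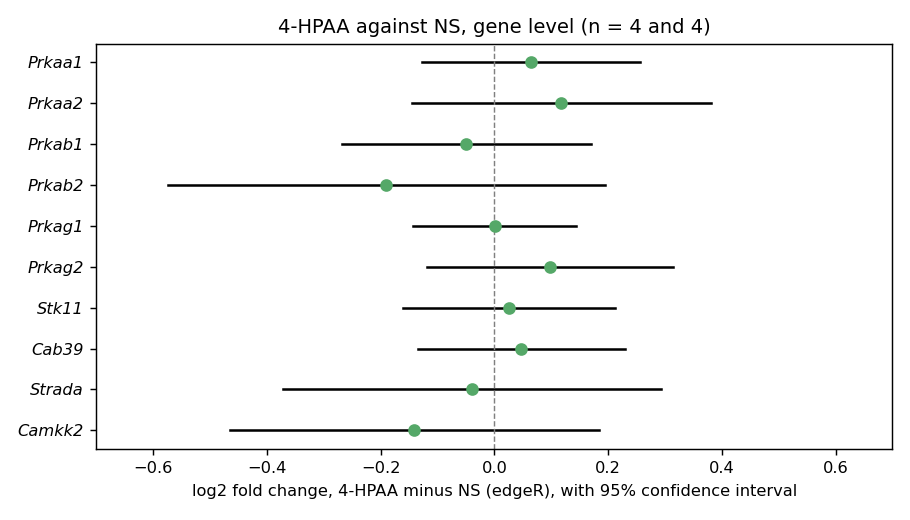
Log2 fold change of each member, 4-HPAA minus NS, from edgeR with its 95% confidence interval (n = 4 and 4). All 10 intervals cross 0, and the interval is narrowest for Prkag1 and widest for Prkab2.

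The following values are normalised counts, in counts per 1000000 (CPM) after TMM scaling, for mice 1 to 4 of each group. Prkaa1, the alpha1 catalytic subunit that most cell types express, had 13.4, 11.4, 12.1 and 11.2 CPM with NS and 11.9, 12.8, 12.4 and 13.2 CPM with 4-HPAA. NS replicate 1 was the highest of all 8 and the other 3 NS livers lay below the middle of the 4-HPAA values. This gave a log2 fold change of 0.064 (SE 0.086, 95% confidence interval −0.13 to 0.26), with an adjusted p of 1.00 by edgeR. Prkaa2, the alpha2 catalytic subunit, had 75.8, 71.1, 95.7 and 71.4 CPM with NS and 73.0, 95.8, 88.5 and 83.4 CPM with 4-HPAA. Low values were found in 3 NS livers and in 4-HPAA replicate 1, and NS replicate 3 was close to the highest 4-HPAA liver. Its log2 fold change of 0.12 (SE 0.12, interval −0.14 to 0.38) leaves changes from 0.904-fold to 1.30-fold inside the interval.

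Prkab1 and Prkab2 encode the beta subunits that tie the alpha and gamma subunits together and bind glycogen. Prkab1 ranged from 15.7 to 20.5 CPM with NS and from 15.9 to 18.6 CPM with 4-HPAA, with replicate 4 the highest in both groups. Its log2 fold change was −0.049 (SE 0.098, interval −0.27 to 0.17). Prkab2 had 2.85, 2.09, 2.36 and 2.10 CPM with NS and 1.96, 2.47, 2.07 and 1.75 CPM with 4-HPAA. The highest value was in NS replicate 1, and all 4-HPAA livers but replicate 2 were below all NS livers. The value of 4-HPAA replicate 2, 2.47 CPM, was above all NS livers but replicate 1. Prkab2 had the largest fold change among the members, −0.19 on the log2 scale (SE 0.17), and also the widest interval, from 0.672-fold to 1.14-fold, with an adjusted p of 1.00 by edgeR. Without NS replicate 1 it was −0.083, and Camkk2 then had the largest value, −0.21. Prkab2-201, the protein-coding transcript with 86.7% of the Prkab2 counts on average, had a log2 fold change of −0.012 (SE 0.21).

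Prkag1, which encodes the gamma1 subunit of most liver AMPK, was the steadiest member. It had 29.2, 28.2, 27.4 and 29.2 CPM with NS and 28.6, 27.1, 28.5 and 29.7 CPM with 4-HPAA. All 8 libraries thus lay within a narrow band and the groups were superimposed. Its log2 fold change was 0.00044 (SE 0.064), with an interval from 0.905-fold to 1.11-fold and an adjusted p of 1.00 by edgeR. Its SD within groups, 0.049 on log2 CPM, was at percentile 0.99 of all genes tested, whose median was 0.18. Prkag2, the gamma2 subunit, had 36.2, 30.5, 28.3 and 34.1 CPM with NS and 35.3, 30.4, 36.1 and 36.2 CPM with 4-HPAA. The livers of 4-HPAA replicate 2 and NS replicates 2 and 3 were low and the other 5 high, so that each group held both. Between the groups the log2 fold change was 0.097 (SE 0.097, interval −0.12 to 0.31).

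**Figure D3:**
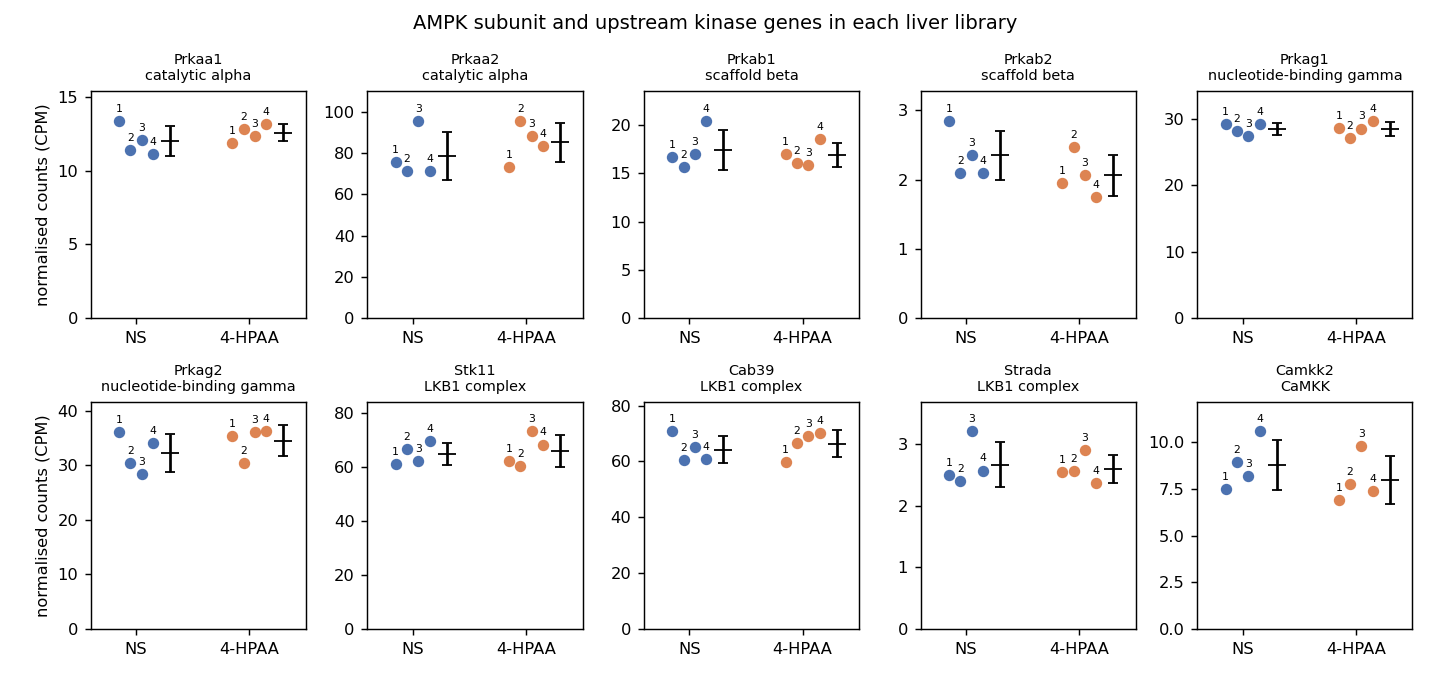
Normalised counts (CPM, axes from 0) of each member in each library, with the replicate number beside each point and the mean ± SD at the right of each group (n = 4). The groups overlap in every panel, and Prkag1 shows the least scatter.

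Stk11 encodes LKB1, the tumour suppressor kinase that activates AMPK and its relatives. It had 60.9, 66.6, 62.2 and 69.4 CPM with NS and 62.0, 60.2, 73.2 and 68.3 CPM with 4-HPAA. The lowest and the highest livers were both in the 4-HPAA group, and the NS livers lay between them. This amounted to a log2 fold change of 0.026 (SE 0.084, interval −0.16 to 0.21). Cab39 ranged from 60.5 to 70.8 CPM with NS and from 59.7 to 70.3 CPM with 4-HPAA, a log2 fold change of 0.048 (SE 0.082). Strada, the pseudokinase that holds LKB1 in its active form, ranged from 2.40 to 3.21 CPM and from 2.38 to 2.91 CPM, a log2 fold change of −0.039 (SE 0.15).

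Camkk2, the calcium-dependent AMPK kinase, had 7.47, 8.92, 8.17 and 10.6 CPM with NS and 6.88, 7.77, 9.80 and 7.38 CPM with 4-HPAA. Of the 4-HPAA livers, 3 were below 3 of the NS livers, but 4-HPAA replicate 3 was above all NS livers but replicate 4. The log2 fold change was −0.14 (SE 0.15), with an interval from 0.724-fold to 1.14-fold and an adjusted p of 1.00 by edgeR. It was −0.040 without NS replicate 4.

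The deposited counts list each transcript, so the isoforms of the members could be followed one by one. Of the 64 transcripts, 33 are annotated as protein-coding, 19 as retained introns, 7 as targets of nonsense-mediated decay and 5 as processed transcripts. Of these, 24 reached 10 counts in each library and were tested, and 40 did not. By edgeR with adjustment over all 25977 transcripts tested, 0 of the 24 passed, against 0% of all, and 0 of them had groups that did not overlap, against 2.1% of all. At an unadjusted p under 0.05 there were 3 (3.85% of all transcripts), Prkaa1-202, Stk11-202 and Camkk2-204.

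The division of Prkaa1 between its transcripts moved far more than the gene. Prkaa1 (GRCm38 chr15:5143861-5181899, plus strand) has 2 listed transcripts of 9 exons each. Prkaa1-202 is contained whole in Prkaa1-201, which has 30 more bases at its 5′ end and 7 more at its 3′ end, and both are annotated as protein-coding. Their annotated start codons lie 27 bases apart in the same frame, that of Prkaa1-201 in the part that it alone holds. The first bases of each are shown because they are nearly all that separates the pair, with the bases of Prkaa1-201 upstream of the start of Prkaa1-202 in capitals (chr15:5143861-5143920 and chr15:5143891-5143920).
Prkaa1-201: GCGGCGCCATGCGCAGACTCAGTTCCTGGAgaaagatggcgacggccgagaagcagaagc
Prkaa1-202: gaaagatggcgacggccgagaagcagaagc

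Of the 4625 stretches of 31 bases in Prkaa1-201, 37 are in no other transcript of the gene, and of the 4588 in Prkaa1-202, 0 are its own. Only reads over those ends can be assigned to Prkaa1-201 alone. Prkaa1-201 had 349, 238, 121 and 237 estimated counts with NS and 238, 0.0131, 120 and 0.0196 with 4-HPAA. Prkaa1-202 had 68.8, 94.0, 248 and 87.7 with NS and 102, 385, 262 and 377 with 4-HPAA. In 4-HPAA replicates 2 and 4 nearly all counts were assigned to Prkaa1-202, NS replicate 3 and 4-HPAA replicate 3 were alike, and the sum stayed between 325 and 418 counts in all 8 libraries. The log2 fold change of Prkaa1-202 was 1.21 (SE 0.48, adjusted p of 1.00 by edgeR's quasi-likelihood test, unadjusted p = 0.0312), and Prkaa1-201 could not be tested because of its values near 0.

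Stk11 (chr10:80115803-80130682, plus strand) showed a similar opposition between its main transcripts, of smaller size. Stk11-201, the full-length form of 10 exons, had 920, 1048, 1059 and 1043 estimated counts with NS and 841, 1257, 1598 and 1307 with 4-HPAA. Stk11-202, of 8 exons, begins inside the gene at position 80125375, and had 518, 513, 447 and 617 counts with NS and 490, 247, 279 and 365 with 4-HPAA. The livers of 4-HPAA replicates 2, 3 and 4 were high in the first and low in the second, and 4-HPAA replicate 1 lay among the NS livers for Stk11-202 and below them for Stk11-201. All 1444 stretches of 31 bases in Stk11-202 occur in other Stk11 transcripts, and 7 of the 2536 in Stk11-201 are its own. Counts that the transcripts share are divided by estimation, so a gain of one can be a loss of the other. The log2 fold change was 0.32 (SE 0.16, unadjusted p = 0.0781) for Stk11-201 and −0.57 (SE 0.23, unadjusted p = 0.0321) for Stk11-202, both with an adjusted p of 1.00 by edgeR.

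Camkk2 (chr5:122731170-122779409, minus strand) was divided between Camkk2-201, with 69.6% of its counts on average, and Camkk2-204, with 17.6%, which starts inside the gene. Camkk2-204 had 38.6, 59.6, 52.2 and 63.6 counts with NS and 25.4, 37.6, 47.3 and 31.5 with 4-HPAA. All 4-HPAA livers but replicate 3 were below all NS livers. Its share of the gene was 16.6% to 22.9% with NS and 12.9% to 16.2% with 4-HPAA, the only one of 19 member transcripts whose shares did not overlap between the groups, where 2.53% of all transcripts did not. For Camkk2-204 the log2 fold change was −0.58 (SE 0.26, unadjusted p = 0.0492, adjusted p of 1.00 by edgeR).

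Transcript usage, the change of a transcript against the rest of its gene, was tested with edgeR's diffSpliceDGE for 19 transcripts of 5 members (Prkab1, Prkag2, Stk11, Strada and Camkk2). None of the 19 passed with Benjamini-Hochberg adjustment, against 0.0304% of the 19759 transcripts tested. Below 0.05 without adjustment lay Stk11-202 alone (unadjusted p = 0.0347 by edgeR), against 2.94% of all. For Camkk2-204 the unadjusted usage p was 0.324 by edgeR. Prkaa1 was not among these genes because only 1 of its transcripts met the count minimum.

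Prkab1 (chr5:116013586-116024508, minus strand) also varied in the division of its counts, between livers rather than between groups. Prkab1-201 held 9.38% to 43.6% of the gene with NS and 13.3% to 54.7% with 4-HPAA. Prkab1-202, which differs from it at the 5′ end, held 41.4% to 78.3% and 29.7% to 73.7%. Of the stretches of 31 bases, 42 in Prkab1-201 and 46 in Prkab1-202 were their own. Strada, with few counts, was split over 4 transcripts whose mean shares were 45.0%, 22.4%, 19.3% and 13.2%, and Strada-201 alone held from 16.2% to 64.9% in single livers.

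**Figure D4:**
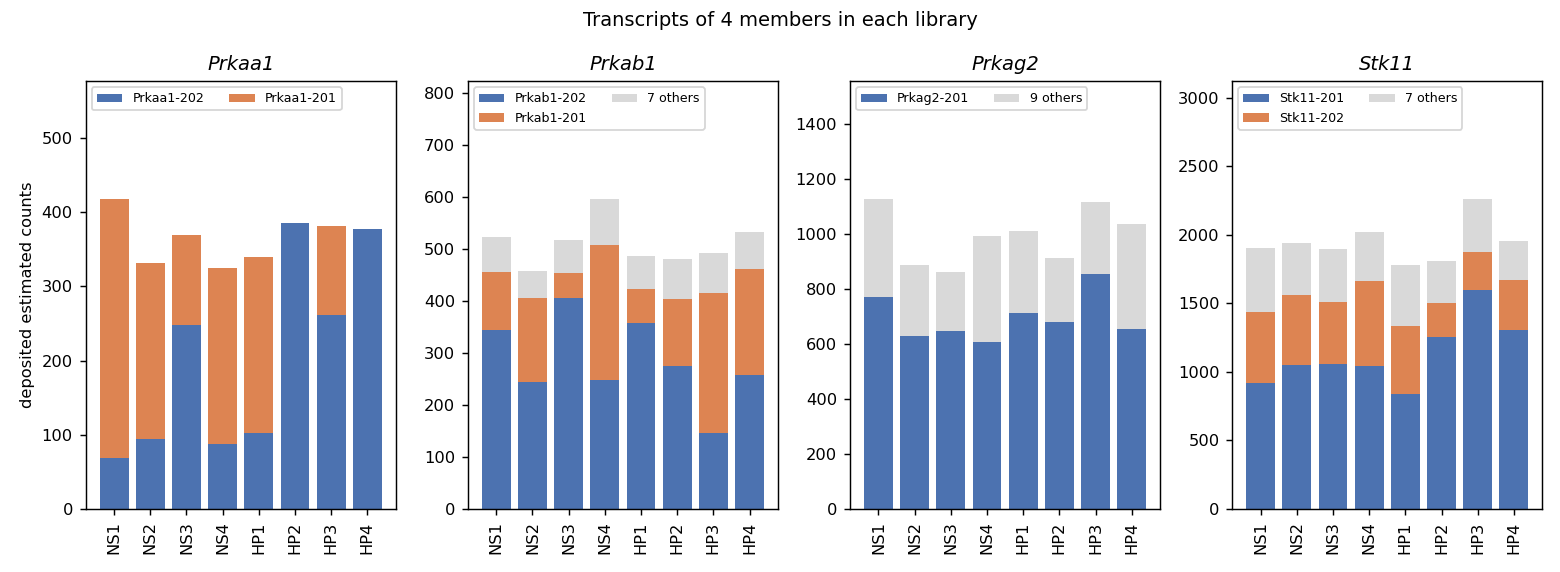
Deposited estimated counts of the transcripts of 4 members, stacked for each library (NS1 to NS4 and HP1 to HP4, the 4-HPAA mice), with the transcripts that hold at least 10% of the gene in colour and the rest in grey. The height of the Prkaa1 bars is steady while the division between its transcripts is not, and for Stk11 the orange Stk11-202 part is smaller in HP2, HP3 and HP4.

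The remaining members rested mainly on a single transcript. Prkaa2 (chr4:105029874-105109890, minus strand) has 1 listed transcript, of 7969 bases. Cab39-202 held 97.9% of Cab39 (chr1:85793441-85851576, plus strand), Prkag1-201 held 95.2% of Prkag1 (chr15:98812797-98831521, minus strand) and Prkab2-201 held 86.7% of Prkab2 (chr3:97658193-97673812, plus strand). Their log2 fold changes were 0.068 (SE 0.093), 0.039 (SE 0.084) and −0.012 (SE 0.21).

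Prkag2 (chr5:24862744-25100642, minus strand) has 3 start sites in RefSeq, and its transcripts show how the estimated counts were divided among them. The upstream start at 25100642 gives Prkag2-201, which held 68.8 ± 5.79% of the counts with NS and 71.2 ± 5.88% with 4-HPAA. The start at 24908509, where 4 listed transcripts begin within 100 bases, held 15.4 ± 3.13% and 14.4 ± 6.95%. Of these, Prkag2-208, annotated as a retained intron, held 7.34 ± 1.18% and 7.77 ± 0.338%. The protein-coding Prkag2-203 held from 0% to 14.5% in single livers. The start at 24995753 gives Prkag2-202 and held 4.14 ± 2.47% and 4.61 ± 2.59%. The upstream start thus carried the largest share of the counts in each liver, from 61.2% to 76.5%, and the groups overlapped at all 3 starts. These shares were not divided by length, and Prkag2-201, of 3331 bases, is the longest of the listed Prkag2 transcripts. All 2175 stretches of 31 bases in Prkag2-203, which begins near 24908509, occur in other Prkag2 transcripts. The other 4 transcripts begin elsewhere.

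The 250 bases before each start (RefSeq, GRCm38.p6, 5′ to 3′ on the minus strand) are shown because the starts differ in both sequence and share of the counts, with each CG pair in capitals. They lie at chr5:25100643-25100892, chr5:24995754-24996003 and chr5:24908510-24908759.
Start at 25100642: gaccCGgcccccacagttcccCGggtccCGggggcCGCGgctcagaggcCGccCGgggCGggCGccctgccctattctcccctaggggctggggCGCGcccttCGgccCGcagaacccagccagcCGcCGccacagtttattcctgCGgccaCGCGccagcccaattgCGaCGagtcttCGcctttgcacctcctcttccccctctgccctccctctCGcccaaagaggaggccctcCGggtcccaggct
Start at 24995753: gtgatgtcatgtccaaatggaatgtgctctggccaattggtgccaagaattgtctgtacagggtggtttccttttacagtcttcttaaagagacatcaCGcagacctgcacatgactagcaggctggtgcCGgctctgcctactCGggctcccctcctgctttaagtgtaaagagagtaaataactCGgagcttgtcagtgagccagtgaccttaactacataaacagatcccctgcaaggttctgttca
Start at 24908509: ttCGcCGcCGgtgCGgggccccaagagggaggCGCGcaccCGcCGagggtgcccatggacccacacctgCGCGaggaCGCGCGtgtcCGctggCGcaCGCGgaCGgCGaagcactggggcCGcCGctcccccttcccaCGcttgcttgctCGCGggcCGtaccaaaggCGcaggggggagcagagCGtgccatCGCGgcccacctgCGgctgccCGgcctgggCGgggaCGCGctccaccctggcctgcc

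The upstream and the downstream start follow CpG-rich sequence, with 23 and 34 CG pairs, and the start between them follows sequence with 4. Among 32851 promoters of the same length, 13.3%, 3.53% and 62.2% hold at least as many. The GC content was 73.2%, 77.2% and 48.4% in the same order, against a median of 52.4%. All 10 members matched an entry, with 12 starts in all, and 11 of the 12 had more CG pairs than the median of 6, where 46.3% of all promoters did. Prkaa1 was the richest, with 45 pairs and a GC content of 85.2%. The motif TATAAA, read on the strand of the gene, was in 0 of the 12 and in 7.59% of all promoters.

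Some counts could be shared with other genes. Of the 10 members, 7 overlap another annotated gene. Stk11 shares 202 of its 4688 stretches of 31 bases with Cbarp, which runs into its 3′ end on the opposite strand, and Strada shares 130 of 5644 with Ccdc47 on the same strand. Prkaa1 and Prkaa2 share 5 stretches with each other, while Prkab1, Prkab2, Prkag1 and Prkag2 share 0 with any other gene. The library kit kept strand, but the study's methods give kallisto with standard parameters, which do not use it, so reads of a member and of a gene antisense to it cannot be told apart where they overlap.

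Of the 4 paralogs described (Prkag3, Cab39l, Stradb and Camkk1), 3 were tested and 0 passed. Cab39l and Stradb had log2 fold changes of 0.027 (SE 0.15) and 0.021 (SE 0.10). Map3k7, which is no paralog but encodes TAK1, another kinase that can phosphorylate AMPK, had 0.016 (SE 0.078). Prkag3 had 146 counts in NS replicate 1, 35 to 65 in the other NS livers and 43 to 50 with 4-HPAA, a log2 fold change of −0.69 (SE 0.36, unadjusted p = 0.0814, adjusted p of 1.00 by edgeR) that ranged from −0.92 to −0.20 as single libraries were left out. It was −0.20 without NS replicate 1. Summed levels of the 6 skeletal muscle markers, Prkag3 included, were 1.75 to 7.60 TPM with NS and 2.23 to 3.29 TPM with 4-HPAA. The library highest in the other muscle markers was NS replicate 3, with 97 counts of Myh4 in NS replicate 3 and 0 in NS replicate 1. Only 2 of the 6 markers reached the count minimum, and a part of muscle RNA in the Prkag3 value was not tested. Camkk1 had 0 to 11 counts and was not tested.

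Genes around AMPK were described from 4 lists, and 0 genes of any list passed the adjusted threshold. Of 12 AMPK-related kinases that LKB1 activates, 9 were tested, 5 higher and 4 lower with 4-HPAA. Nuak2 had the smallest p of them, with 9.43, 7.38, 9.18 and 8.45 CPM with NS and 9.88, 11.3, 8.93 and 13.4 CPM with 4-HPAA. The values of 4-HPAA replicate 3 lay within the NS range and the other 3 above it (log2 fold change 0.34, SE 0.14, unadjusted p = 0.0363, adjusted p of 1.00 by edgeR). It was 0.21 without 4-HPAA replicate 4 and 0.15 without both libraries highest in red blood cell genes. Mark2, a kinase of microtubule-binding proteins, had a log2 fold change of −0.089 (SE 0.077).

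Of 20 genes whose products AMPK phosphorylates directly, all were tested, 13 higher and 7 lower, with a median log2 fold change of 0.026. They include Acaca and Acacb, the acetyl-CoA carboxylases of fatty acid metabolism, with log2 fold changes of 0.12 and −0.11, and Gys2, the liver glycogen synthase, with 0.15. Those 3 were picked after their values were seen. The smallest p values were those of Foxo3, a transcription factor (0.14, SE 0.093), and Ulk1, the kinase that starts autophagy (0.12, SE 0.12). They were 0.054 for Foxo3 without 4-HPAA replicate 1 and 0.035 for Ulk1 without NS replicate 3.

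Of 16 regulators of AMPK, 15 were tested, 8 higher and 7 lower. Ddit4, a stress-induced inhibitor of mTORC1, had 90.8, 24.4, 22.8 and 29.4 CPM with NS and 16.5, 26.9, 23.2 and 13.7 CPM with 4-HPAA. NS replicate 1 stood far above the other 7, among which the groups overlapped. The log2 fold change was −1.06 (SE 0.44, unadjusted p = 0.0370, adjusted p of 1.00 by edgeR), and −0.34 without NS replicate 1. That library was also the highest for 6 of 7 immediate early genes, which cells induce within minutes of a stimulus, with 111 CPM of Jun against 12.9 to 41.5 CPM in the others. The remaining gene, Junb, was highest in 4-HPAA replicate 1 (51.9 CPM), which had 102 CPM of Egr1 but 0.559 CPM of Atf3. In that 4-HPAA liver Ddit4 was low, at 16.5 CPM. Of the 7, 6 were tested, all lower on average with 4-HPAA (median log2 fold change −0.92) and 0 past the threshold. Their summed levels were 54.4 to 281 TPM with NS and 46.6 to 185 TPM with 4-HPAA, and their part in the Ddit4 value was not tested. Flcn, the folliculin gene, had a log2 fold change of −0.19 (SE 0.14), and −0.078 without NS replicate 2.

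Of 12 enzymes of adenine nucleotides and related purines, some of which act on the AMP and ATP that AMPK senses, 11 were tested, 5 higher and 6 lower. Ak4, a mitochondrial adenylate kinase, had 114 to 133 CPM with NS and 122 to 159 CPM with 4-HPAA, a log2 fold change of 0.19 (SE 0.096, unadjusted p = 0.0745). Ampd1, the muscle AMP deaminase, had 0.583 to 2.53 CPM and 0.559 to 1.67 CPM, a log2 fold change of −0.55 (SE 0.44), and −0.24 without NS replicate 3. The adjusted p of both was 1.00 by edgeR.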

How the data were processed

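Per mouse and transcript, the authors deposited the estimated count from kallisto, a pseudo-aligner, without normalization or pooling. The submitters' processing notes name FastQC 0.11.9 and GRCm38.p6. Gene sums followed GENCODE M21 (GRCm38) and were rounded. Of 119414 transcripts, 116728 matched a gene, and the rest held 0.703% to 1.06% of a library.

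Tests used edgeR 4.0.16 in R 4.3.3 on genes and transcripts that reached 10 counts in each library (quasi-likelihood, TMM, no block, Benjamini-Hochberg adjustment, threshold 0.05), and usage with diffSpliceDGE. Errors and p-values rest on the spread between these mice, counting error included. Standard errors are the log2 fold change over the square root of F. TPM used annotated lengths. Coordinates count from 1. The steps were tested on simulated data.

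The members, the lists and the rules were chosen with earlier results of these data known. Named were all members, their paralogs and Map3k7, transcripts with at least 10% of their gene or groups that do not overlap, and the 2 genes with the smallest p of each further list. Alternatives included limma-voom (limma 3.58.1), DESeq2 1.42.0, other normalizations and filters, left-out libraries and the replicate number as a block. Figures used Python 3 and matplotlib.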

Additional observations from a re-analysis of the deposited data

Results flagged for a closer look

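In 92 groups of 4 mice, 8 held a mouse whose distance to the nearest other took up more of the range of its group than Dixon's 95% limit allows. Chance gives about 1 in 20 groups, or 4.6 here. At the gene level, Prkag2 was low in 4-HPAA replicate 2 (30.4 CPM, the others 35.3 to 36.2), Map3k7 was low in 4-HPAA replicate 1 (39.0 CPM, the others 44.2 to 45.1) and Foxo3 was high in 4-HPAA replicate 1 (82.6 CPM, the others 64.8 to 67.7). In NS replicate 1, Cab39l (83.6 CPM, the others 54.7 to 59.4) and Ddit4 (90.8 CPM, the others 22.8 to 29.4) were high. At the transcript level, Stk11-201 was low in NS replicate 1 (920 estimated counts, the others 1043 to 1059), and NS replicate 3 was high in Strada-204 (27.1, the others 5.69 to 9.27) and Prkaa1-202 (248, the others 68.8 to 94.0).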

How the results depend on the processing

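The member genes passed the threshold in no alternative run. Of the alternative values of their log2 fold changes 149 kept their direction and 11 reversed it, with Strada reaching 0.062. With total counts only, Prkag1 was at −0.0067. Without the libraries highest in globin genes, chosen after seeing the data, Prkag1 was at −0.034, Cab39 −0.017, Cab39l −0.036, Map3k7 −0.030, Strada-201 −0.010, Prkab2-201 0.039 and Prkag1-201 −0.0042. With single libraries left out, Prkab1 ranged from −0.11 to 0.035, Prkag1 from −0.026 to 0.023, Stk11 from −0.028 to 0.067, Strada from −0.098 to 0.062, Cab39l from −0.054 to 0.19, Stradb from −0.043 to 0.074 and Map3k7 from −0.0088 to 0.066. Those that kept their direction were Prkaa1 (0.030 to 0.12), Prkaa2 (0.056 to 0.23), Prkab2 (−0.29 to −0.083), Prkag2 (0.039 to 0.16), Cab39 (0.013 to 0.099) and Camkk2 (−0.26 to −0.040). Among transcripts the ranges were −0.15 to 0.34 for Strada-201, −0.088 to 0.67 for Prkab1-201, −0.16 to 0.079 for Prkab2-201, −0.15 to 0.24 for Strada-202 and 1.00 to 1.77 for Prkaa1-202. DESeq2 called 2 genes and 19 transcripts, where edgeR called 0 and 0. Leaving out single libraries gave 0 to 1 genes (1 without 4-HPAA replicate 1), 0 to 1 transcripts and, for usage, 0 to 61 transcripts (61 without 4-HPAA replicate 1, 0 without NS replicate 4) against 6, and 13 without the libraries highest in globin genes. The cause was not tested. On protein-coding transcripts only, also chosen after seeing the data, the ratio over all libraries was 0.568 for Prkag2 to Prkag1, 13.3 for Stk11 to Camkk2 and 3.20 for Stradb to Strada. The groups share replicate numbers, but nothing read here ties same-numbered mice. The deviations of same-numbered libraries correlated at 0.040, 0.17, 0.27 and 0.48, and other pairs ranged from −0.48 to 0.47 (mean −0.078). Deviations were taken from the mean of each group and cancel out within it. Positive values for same-numbered pairs therefore push the mean of the other pairs below 0, so the contrast cannot show that such mice are tied. Of the 8 libraries, 4 correlated best with their own number. A replicate block gave 0 called genes, 0 called transcripts and, for usage, 4. Strada, Prkab2 and many single transcripts rest on few counts, and the share of counting error in their spread was not tested.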
